A study of Homo sapiens with 6 samples.

Results

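The genes described here carry out the unfolded protein response of the endoplasmic reticulum (ER) and the integrated stress response, here in the human glioblastoma line U373. Of 37 listed genes, 34 had at least 1 probe set whose platform annotation gave that symbol alone. They were read by 41 of the 12558 probe sets of the Affymetrix HG-U95Av2 array that are not controls. HSP90B1 was left out because its only probe set carries several symbols, and PSAT1 and EIF2AK3 because no probe set names them. The 34 genes comprise 8 ER chaperones and folding enzymes, 4 sensors and degradation factors of the ER, 7 factors of the integrated stress response, 9 genes of amino acid synthesis and transport, 5 aminoacyl-tRNA synthetases and the lipoprotein receptor VLDLR. The genes of amino acid synthesis and transport and the synthetases together are called the 14 amino acid response genes below.

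The study placed a syk construct under an ecdysone-inducible system, in which the steroid ponasterone A (PonA) turns the construct on. Each of its 6 groups has 1 array. The groups are untransfected untreated cells at day 1, syk-transfected untreated cells at day 1 and at day 2, syk-transfected cells with ethanol at day 1, and syk-transfected cells with ethanol and 10 µM PonA at day 1 and at day 2. Both PonA groups therefore also carry ethanol, and no array holds untransfected cells with ethanol or PonA, or ethanol alone at day 2. Exposure to PonA is labelled as 6 to 48 hours without a value for each array. They name neither a clone nor separate cultures, so no value below has a replicate error, and p-values measure differences among these arrays only.

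When unfolded proteins gather in the ER, the sensors ATF6, ERN1 and EIF2AK3 start the unfolded protein response. ATF6 and spliced XBP1 turn on chaperone genes such as HSPA5, often through a promoter sequence called the ER stress element (ERSE). EIF2AK3 and related kinases, which sense other stresses such as a lack of amino acids, slow translation and let the transcription factor ATF4 be made, and ATF4 with its partners turns on genes of amino acid supply through a C/EBP-ATF composite element (CARE).

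These promoter sequences are shown as a description that uses no measured value. The elements searched are known ones of these same pathways, so finding them in listed genes is no independent evidence for the grouping. RefSeq windows of assembly GRCh38.p14, from 250 bases before to 50 bases after each gene's start, were at hand for 32 of the 37 listed genes and were searched on both strands. PDIA3, PSPH, SLC7A11, SHMT2 and NUPR1 had no window. The 8 chaperones with a window are thus not the 8 measured ones, since they include HSP90B1 and lack PDIA3. The ERSE, searched as CCAAT and CCACG with 9 bases of any kind between them, lay in the windows of 5 of 8 chaperone genes (CALR, CANX, HSP90B1, HSPA5 and PDIA6) and of XBP1, against 0.0916% of 27305 genes. It lay in none of the 7 windows of amino acid synthesis and transport genes and none of the 5 of synthetases. The CARE, searched as TGATGNAA, lay in none of the 8 chaperone windows, and in 2 of 7 for synthesis and transport (ASNS and SLC3A2), 3 of 5 for synthetases (AARS1, GARS1 and NARS1) and 2 of 6 for integrated stress response factors (ATF3 and CEBPG), against 4.46% of all genes. HERPUD1, a factor of ER-associated degradation, held both a CARE and a type II ER stress element (ERSE-II), searched as ATTGG and CCACG with 1 base of any kind between them and found in 0.0696% of genes. The unfolded protein response element TGACGTGG, found in 0.927% of genes, lay in none of the windows of the listed genes. A match is a description of letters, and a window without one says nothing about a factor. ERSE matches are capitalised in the stretches of HSPA5 (chr9:125241376-125241424, minus strand), CALR (chr19:12938369-12938417, plus strand), CANX (chr5:179698763-179698811, plus strand), PDIA6 (chr2:10812838-10812886, minus strand) and XBP1 (chr22:28800588-28800636, minus strand). Each is written 5′ to 3′ on the gene's own strand, and the CALR match reads on the other strand.
HSPA5: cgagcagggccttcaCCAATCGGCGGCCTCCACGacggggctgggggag
CALR: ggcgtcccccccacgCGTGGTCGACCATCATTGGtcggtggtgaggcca
CANX: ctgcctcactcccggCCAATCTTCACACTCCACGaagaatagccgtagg
PDIA6: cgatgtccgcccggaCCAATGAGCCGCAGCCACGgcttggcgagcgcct
XBP1: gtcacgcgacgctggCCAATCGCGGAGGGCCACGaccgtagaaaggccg
CARE matches are capitalised in ASNS (chr7:97872454-97872491, minus strand), CEBPG (chr19:33374056-33374093, plus strand), AARS1 (chr16:70289671-70289708, minus strand), GARS1 (chr7:30594830-30594867, plus strand) and HERPUD1 (chr16:56931951-56931988, plus strand). The matches of AARS1, GARS1 and HERPUD1 read on the strand opposite to the gene. The ERSE-II of HERPUD1 (chr16:56932010-56932050, plus strand) is given last.
ASNS: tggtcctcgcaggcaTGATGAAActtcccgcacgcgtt
CEBPG: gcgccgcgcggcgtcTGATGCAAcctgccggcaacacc
AARS1: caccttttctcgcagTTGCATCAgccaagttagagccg
GARS1: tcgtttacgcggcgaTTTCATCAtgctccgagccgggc
HERPUD1 CARE: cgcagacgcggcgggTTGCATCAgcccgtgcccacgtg
HERPUD1 ERSE-II: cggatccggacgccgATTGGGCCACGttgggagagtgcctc

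Values are MAS5 signals, 1 linear brightness per probe set, which the authors had scaled to a common array mean. A signal under the 40th percentile of its array (22.7 to 26.5 units) was set to that percentile, called the floor, before log2 was taken. Hybridisation spike-ins, read by 9 probe sets, had a geometric mean of 157 in untransfected and 271 in ethanol-treated cells against 352 to 501 on the other 4 arrays, and their part in the results was not tested. The beta-actin 3' to 5' ratio was 0.960 to 0.987 at day 1 and 1.20 to 1.21 at day 2, while that of GAPDH was 0.939 to 1.04 throughout. The 3 SYK probe sets disagreed: the first read 39.1 and 72.5 with PonA against 1.74 to 22.2 without, the second 56.3 and 35.2 with PonA against 22.0 to 73.1 without, and the last lay under the floor throughout. Among glial markers, 7 of 8 measured were above the floor on some array, and VIM was bright on every array (4919 to 6458). GFAP and the neuronal NEFL read 1533 and 458 in untransfected cells against 103 to 229 and 10.1 to 26.5 in transfected cells, so these genes too differed between untransfected and transfected cells. Of the blood cell markers PTPRC and CD14 were under the floor on all 6 arrays, while CD3E (58.7 to 83.2) was above it on all 6 and LCP1 on 4. Of the epithelial markers EPCAM and KRT19 were under the floor throughout, CDH1 was above it on 1 array, and KRT8 (427 to 590) and KRT18 (49.95 to 82.3) were above it on all 6. In a bulk extract, fewer cells with a transcript and less of it per cell cannot be told apart.

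With ethanol alone at day 1, genes of amino acid supply were higher than in untreated transfected cells and the ER chaperones were not. Of the 14 amino acid response genes 13 were higher, with a median log2 difference of 0.58, whereas 2 of the 7 chaperones above the floor were higher and the median over all 8 was -0.09. The median over all probe sets was -0.01. PonA over ethanol at day 1 ran the other way, with all 8 chaperones higher (median 0.32) and 10 of 14 amino acid response genes lower (median -0.18), beside 0.03 over all probe sets. These comparisons share the ethanol array, so a high or low reading on it pushes them in opposite directions. Against untreated cells of the same day, PonA arrays showed both groups higher: the medians were 0.34 for amino acid response genes and 0.30 for chaperones at day 1, and 0.53 and 0.34 at day 2. Medians treat a gene under the floor as lying at it.

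**Figure D1:**
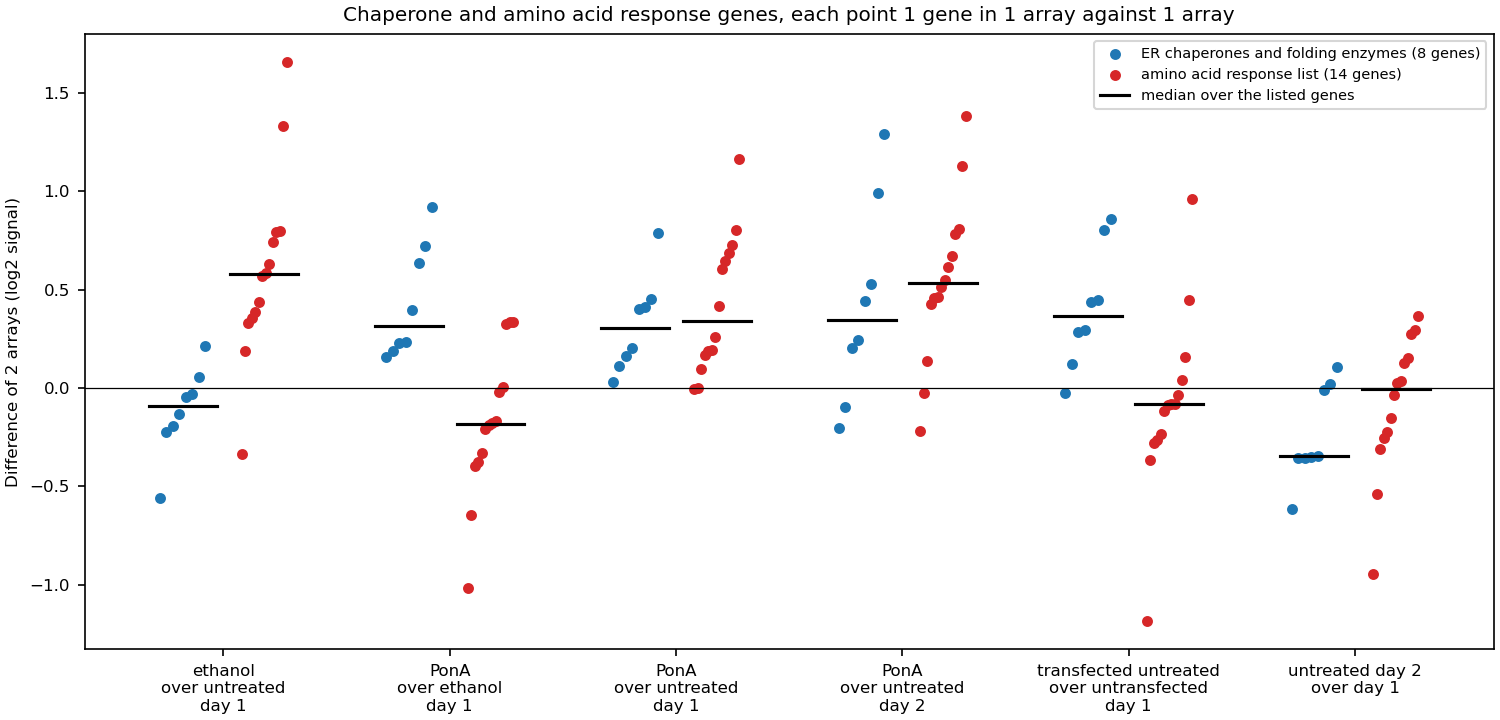
Log2 difference (y axis) of each of 8 chaperones and 14 amino acid response genes in 6 comparisons of 1 array with 1 array (x axis), 1 point per gene, with a black line at each list's median. The amino acid response genes lie mostly above 0 for ethanol over untreated cells (median 0.58) and mostly below 0 for PonA over ethanol (median -0.18), where the 8 chaperones all lie above 0.

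Among the factors of the integrated stress response, ATF4 and CEBPG separated the arrays by ethanol. ATF4, the response's central transcription factor, read 418 in untransfected cells, 403 and 458 in untreated transfected cells at days 1 and 2, 822 with ethanol, and 752 and 879 with PonA at days 1 and 2. CEBPG, a dimer partner of ATF4, read 128 untransfected, 82.8 and 94.9 untreated, 160 with ethanol, and 171 and 194 with PonA. For both genes the 3 arrays with ethanol lay above the 2 transfected arrays without it. PonA over ethanol at day 1 was 0.915-fold for ATF4 and 1.07-fold for CEBPG. Ethanol over untreated was 2.04-fold for ATF4 and 1.94-fold for CEBPG, and PonA over untreated at day 2, which shares no array with it, was 1.92-fold and 2.04-fold.

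DDIT3, also called CHOP, is a factor downstream of ATF4 linked to cell death, and its pattern was different. It read 86.4 in untransfected cells, 201 and 263 in untreated cells at days 1 and 2, 399 with ethanol, and 181 and 441 with PonA at days 1 and 2. The ethanol array and the PonA array of day 2 were thus high, while the PonA array of day 1 was below both untreated transfected arrays. A second DDIT3 probe set had a smaller range, at 120 untransfected, 196 on both untreated arrays, 351 with ethanol and 191 and 287 with PonA. Its ethanol array and PonA array of day 2 were again the highest, but in the reverse order. Its PonA array of day 1 lay close to the untreated arrays. NUPR1, a small stress-induced chromatin protein, read 40.5 untransfected, 170 and 141 untreated, 356 with ethanol, and 229 and 218 with PonA. Its ethanol array was the highest and its untransfected array the lowest of the 6, and a second NUPR1 probe set kept both ends (341 and 84.4).

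The other 3 factors did not separate the arrays by ethanol. ATF3 was above the floor on 3 arrays only, at 27.3 untreated at day 2, 31.1 with ethanol and 43.6 with PonA at day 2. CEBPB, a C/EBP factor of inflammation and differentiation, read 1406 in untransfected cells and 694 to 998 in transfected cells, lowest with PonA (694 and 776). PPP1R15A, which restarts translation by bringing a phosphatase to eIF2, read 98.9 untransfected, 146 and 72.8 untreated, 128 with ethanol, and 131 and 113 with PonA. Its lowest value was thus the untreated array of day 2.

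**Figure D2:**
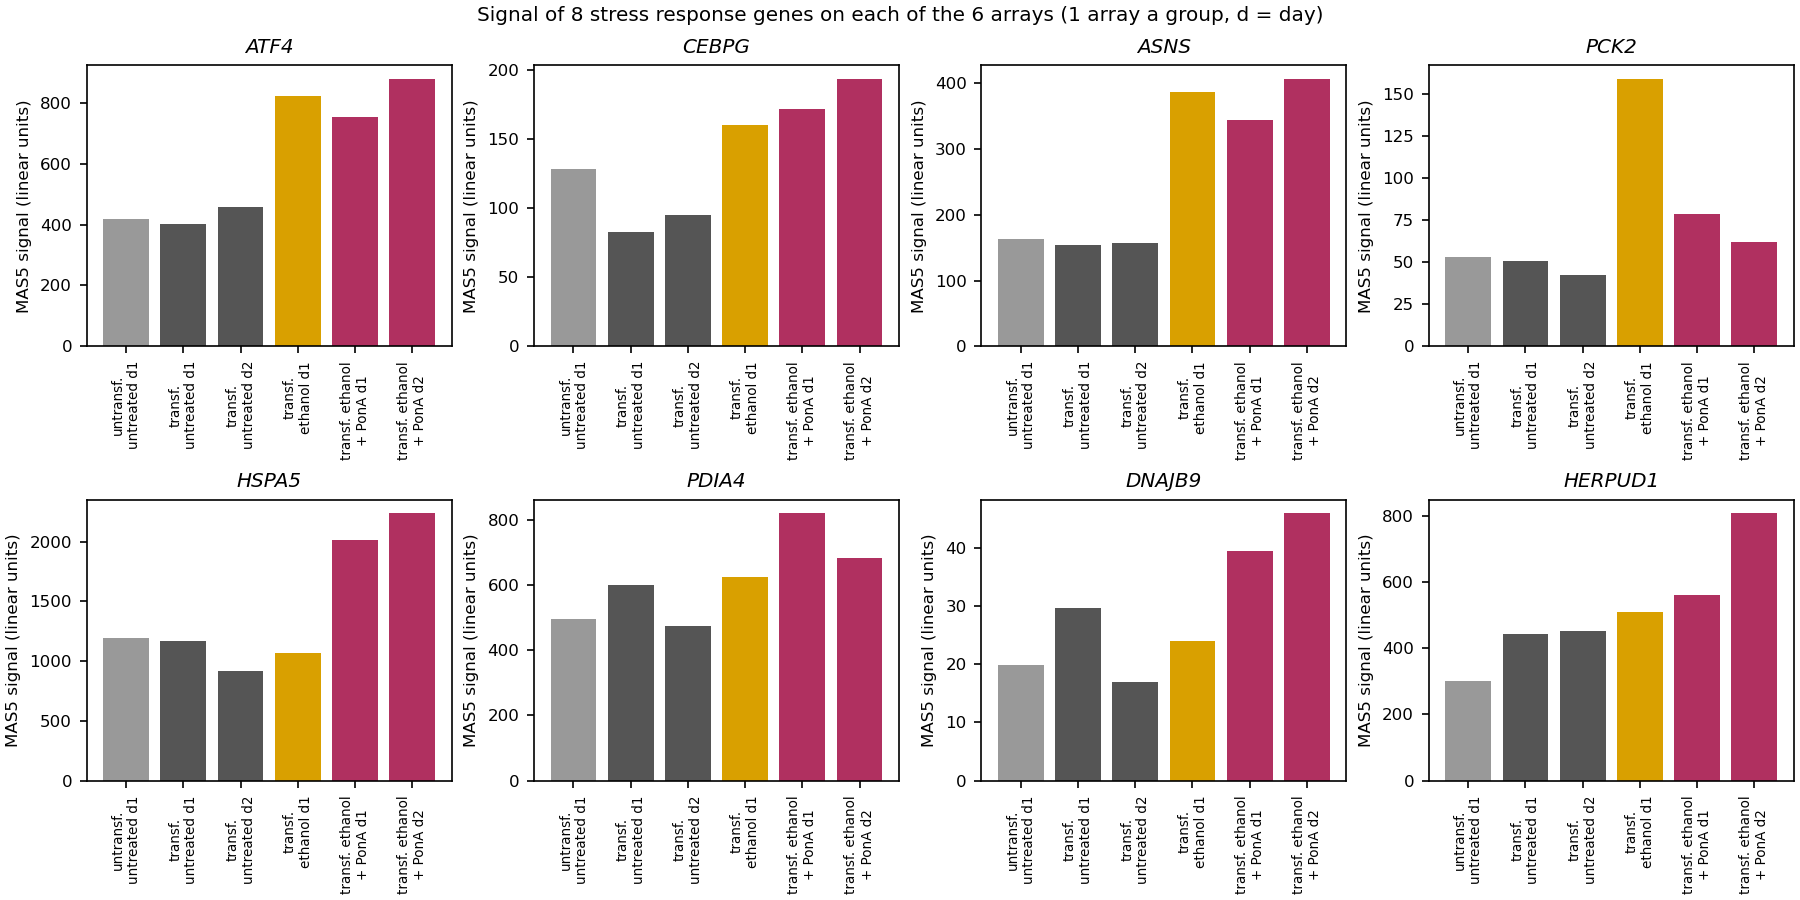
MAS5 signal (y axis, linear units from 0) of ATF4, CEBPG, ASNS, PCK2, HSPA5, PDIA4, DNAJB9 and HERPUD1 on each of the 6 arrays (x axis), 1 bar per array with no error bar because each group has 1 array. ATF4, CEBPG and ASNS are higher on the 3 arrays with ethanol than on the transfected arrays without it, whereas HSPA5 is higher on the 2 PonA arrays (2017 and 2242) than on the other 4 (918 to 1191).

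Among amino acid genes, ASNS and PCK2 were furthest from untreated cells with ethanol. ASNS, which makes asparagine and is a standard target of ATF4, read 163 in untransfected cells, 154 and 157 untreated, 387 with ethanol, and 345 and 407 with PonA. The 3 arrays without ethanol lay between 154 and 163 and the 3 with it stood clear above them, 2.52-fold for ethanol and 2.24-fold and 2.60-fold for PonA over untreated cells at days 1 and 2. PCK2, the mitochondrial phosphoenolpyruvate carboxykinase, read 53.3 untransfected, 50.4 and 42.3 untreated, 159 with ethanol, and 78.7 and 61.9 with PonA. Its ethanol array was 3.15-fold above untreated cells, and its PonA arrays lay between, 0.495-fold of ethanol at day 1. The RefSeq window of PCK2 held none of the searched elements, and that of ASNS held the CARE printed above.

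The serine and folate genes differed among themselves. PHGDH, the entry enzyme of serine synthesis, read 1812 untransfected, 1862 and 1909 untreated, 3112 with ethanol, and 1992 and 2103 with PonA, so that the ethanol array alone stood apart. MTHFD2, a mitochondrial folate enzyme, read 507 untransfected, 692 and 770 untreated, 1197 with ethanol, and 1052 and 1224 with PonA, so that all 3 arrays with ethanol were high. SHMT2, which passes the serine carbon to folate, stayed between 118 and 176. PSPH, the last enzyme of serine synthesis, read 312 in untransfected cells, 137 and 168 untreated, 239.1 with ethanol, and 239.8 and 294 with PonA. Both PSPH probe sets are marked by the manufacturer as able to read several transcripts, so its values are uncertain, and the second (223 untransfected, 91.2 and 133 untreated, 166 with ethanol, 182 and 240.5 with PonA) ran the same way.

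The carrier of large neutral amino acids was high with ethanol and lower at day 2. SLC7A5, its light chain, read 945 untransfected, 1054 and 546 untreated, 1350 with ethanol, and 1692 and 1193 with PonA. SLC3A2, its heavy chain, read 642 untransfected, 628 and 507 untreated, 970 with ethanol, and 838 and 680 with PonA. In each, the 3 arrays with ethanol exceeded both untreated transfected arrays, and within a treatment day 2 was lower than day 1. SLC7A11, the cystine carrier, stayed between 72.4 and 127 and was 1.14-fold higher with ethanol.

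Of the 5 synthetases, which charge tRNAs with amino acids, GARS1, AARS1 and SARS1 were higher on all 3 arrays with ethanol than on both transfected arrays without it. GARS1 read 810 untransfected, 746 and 960 untreated, 976 with ethanol, and 1233 and 1472 with PonA, and a second probe set that may read several transcripts ran likewise (390 and 391 untreated against 568, 640 and 879). AARS1 read 757 and 827 untreated, 1137 with ethanol, and 863 and 1141 with PonA, beside 801 untransfected. The lowest AARS1 value with ethanol was therefore close to the highest without it, as was that of GARS1 (976 against 960). SARS1 was 440 to 490 untreated and 586 to 664 with ethanol or PonA, but its untransfected array read 632. WARS1 was highest with ethanol (368 against 248 to 300), and NARS1 was lower with ethanol than without it, at 467 against 589 and 505, and highest with PonA at day 2 (870).

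The single arrays can also be counted. At least 2-fold higher with ethanol than untreated at day 1 were 4 of the 33 members above the floor (ASNS, PCK2, ATF4 and NUPR1), beside 1.04% of 8015 probe sets, and none was 2-fold lower (1.15% of probe sets). Higher on all 3 arrays with ethanol than on both transfected arrays without it were 10 of 14 amino acid response genes, 3 of 7 integrated stress response factors (ATF4, CEBPG and NUPR1) and 2 of 8 chaperones (CALR and PDIA4), beside 12.2% of 7934 probe sets. Over all 34 members the count was 17, with ATF6 alone lower on all 3, beside 13.4% of probe sets. Some margins between the lowest array with ethanol and the highest transfected array without it were narrow. These were PHGDH (1992 against 1909), GARS1 (976 against 960), AARS1 (863 against 827) and PDIA4 (624 against 601). The second CALR probe set did not meet the rule, since untreated cells at day 2 (1045) exceeded ethanol (951) and PonA at day 1 (953). Without the ethanol-only array the counts were 10 of 14 and 4 of 8, beside 22.6% of probe sets, but ethanol and PonA cannot then be told apart. Without the untreated array of day 1 the count was 5 of 8 chaperones, beside 30.5% of probe sets, and DNAJB9, one of the 5, lay under the floor on the ethanol array and the untreated day 2 array, so its place depends on the floors.

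**Figure D3:**
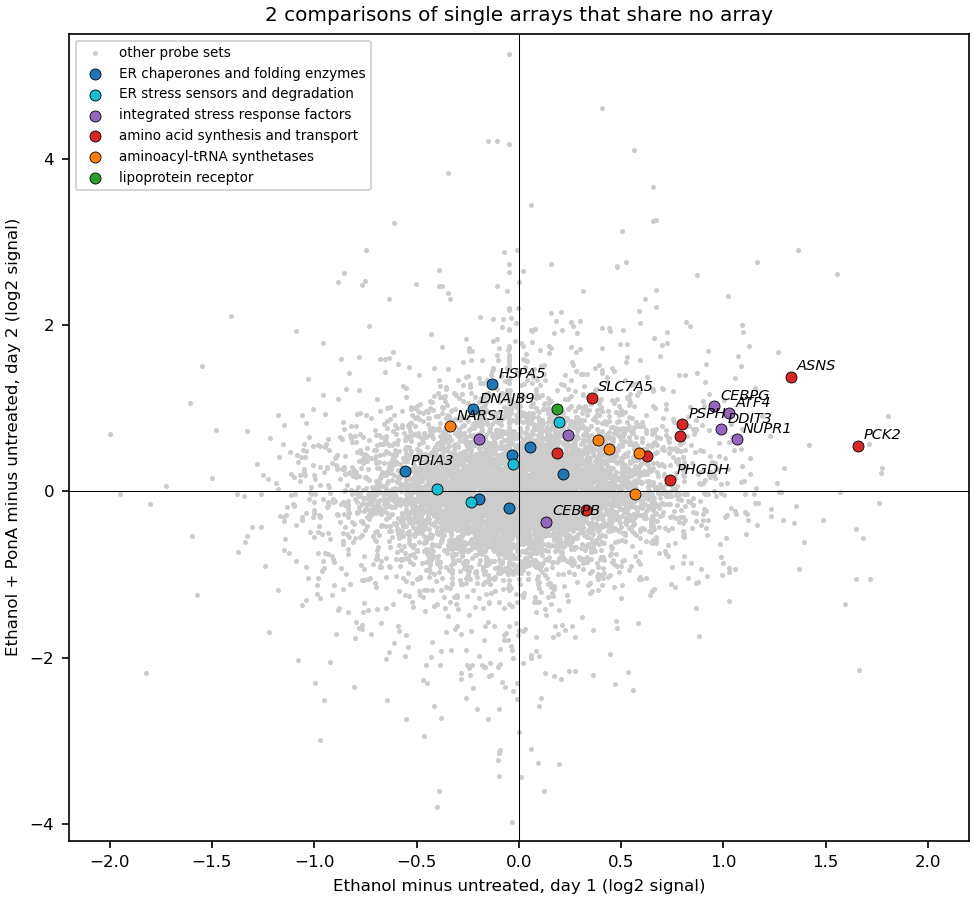
Log2 difference of ethanol over untreated cells at day 1 (x axis) against PonA over untreated cells at day 2 (y axis), which share no array, for all tested probe sets in grey and the 34 members coloured by role. ASNS, ATF4 and CEBPG lie high on both axes, PCK2 lies furthest to the right, and HSPA5 lies high on the y axis at -0.13 on the x axis.

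The ethanol difference of day 1 and the PonA difference of day 2, each against untreated cells, share no array. Across the 34 members they correlated at a Pearson r of 0.328 (Spearman rho 0.315), and across 7934 probe sets at 0.0943 (rho 0.0831). PonA over ethanol at day 1, set against the same day 2 comparison, gave r of 0.185 over members and 0.592 over all probe sets. Over the 14 amino acid response genes the order was the reverse of that over members. There the ethanol difference gave r of 0.198 (rho 0.226) and PonA over ethanol gave 0.451 (rho 0.618). Genes are not independent replicates, all points of a comparison come from the same arrays, and the ethanol array enters both day 1 comparisons with opposite sign.

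A limma fit with ethanol, PonA and day as terms over the 5 transfected arrays has 1 residual degree of freedom, and it called 0 of 7934 probe sets at an adjusted p of 0.05 (0% of probe sets, hence 0 of 34 members), with 567 at an unadjusted p under 0.05. By the unadjusted p 11 of 34 members were higher with ethanol and none lower, beside 3.31% of probe sets higher and 3.83% lower. They were 7 of 14 amino acid response genes (PCK2, ASNS, MTHFD2, PSPH, PHGDH, AARS1 and SLC3A2), 4 of 7 factors (NUPR1, ATF4, DDIT3 and CEBPG) and 0 of 8 chaperones. The ethanol term was 1.63 ± 0.27 (log2, SE; adjusted p = 0.436 by limma) for PCK2, which ranked 4 by p among all probe sets, and 1.38 ± 0.27 for ASNS, which ranked 10. The median term was 0.57 over amino acid response genes, 0.95 over the 7 factors, -0.04 over chaperones and -0.02 over all probe sets. With an intensity trend in the variance model the same fit called 77 of 7934 probe sets, 46 higher and 31 lower. Among them were 8 members (ATF4, DDIT3, NUPR1, ASNS, PCK2, PHGDH, MTHFD2 and AARS1). That setting took every variance from the trend alone, so the probe set's own variance did not enter these calls.

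**Figure D4:**
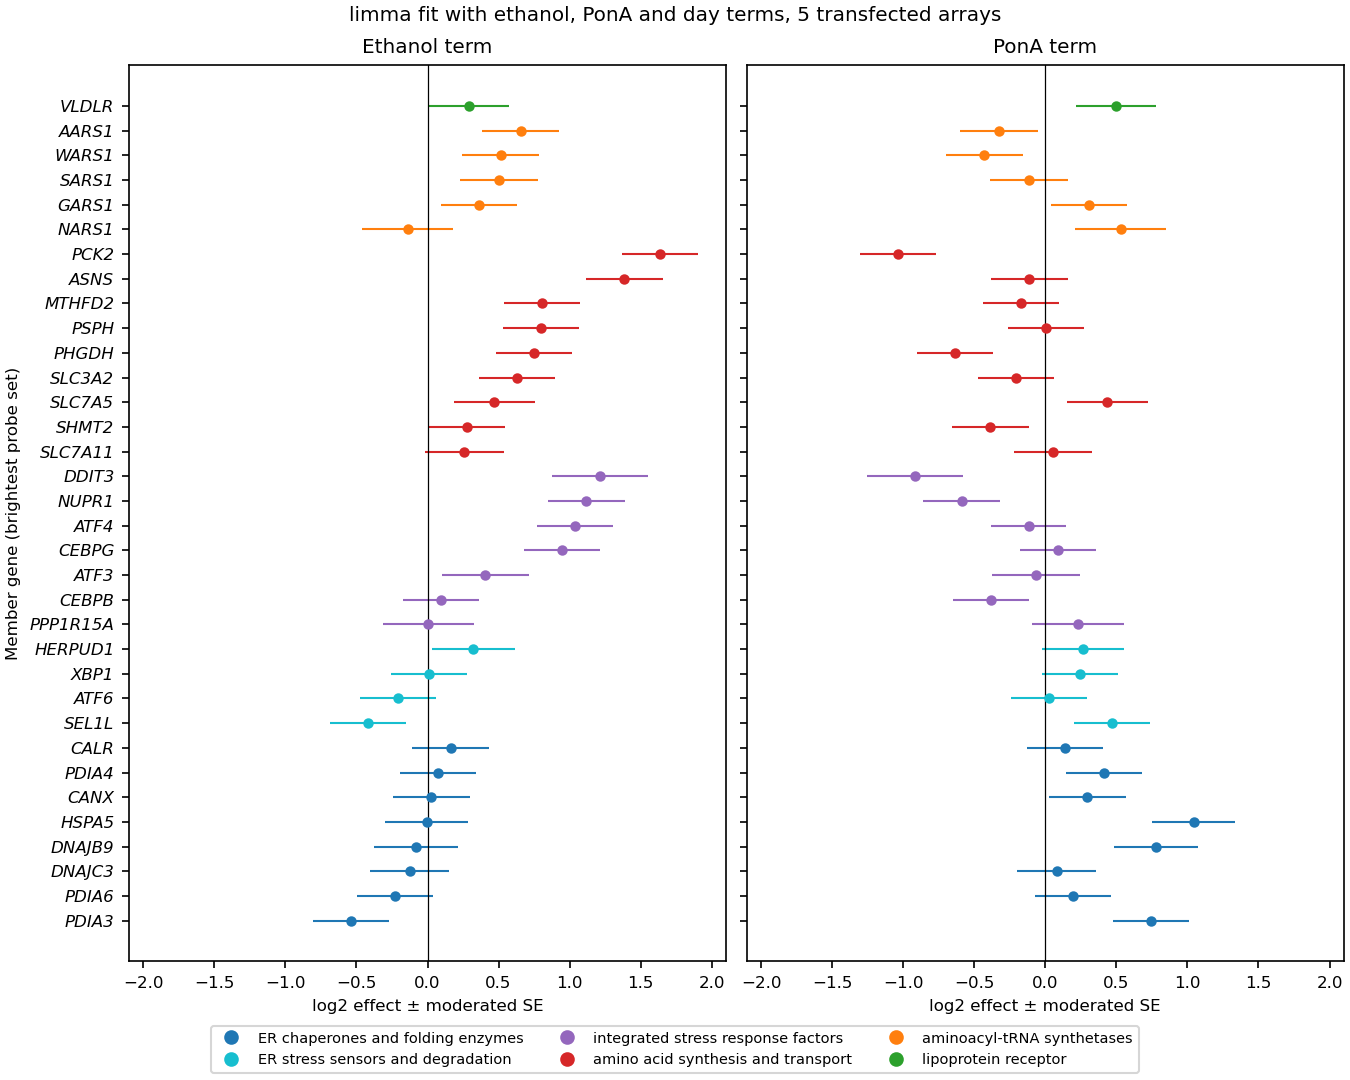
Ethanol term and PonA term (x axes, log2; bars are the moderated SE) of each of the 34 members (y axis, coloured by role) in the limma fit that holds both terms and day. Ethanol terms are positive in 26 of 34 members. These include 13 of 14 amino acid response genes (all but NARS1), all 7 integrated stress response factors and 3 of 8 chaperones. HSPA5 has an ethanol term of -0.01 and the highest PonA term, 1.04.

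HSPA5, the main ER chaperone, also known as BiP or GRP78, followed PonA and not ethanol. It read 1191 in untransfected cells, 1170 and 918 untreated at days 1 and 2, 1068 with ethanol, and 2017 and 2242 with PonA at days 1 and 2. Both PonA arrays stood clear of the other 4. PonA was 1.89-fold above ethanol and 1.72-fold above untreated cells at day 1, and 2.44-fold above untreated cells at day 2. In the limma fit with PonA and day as terms, HSPA5 rose by 1.04 ± 0.19 (log2, SE; adjusted p = 0.0309) and was the only one of 34 members called, beside 2.70% of 7934 probe sets called higher and 2.37% lower (5.07% in all). That call was lost when the PonA array of day 1 (adjusted p = 0.0953 by limma), the untreated array of day 2 (0.22) or the PonA array of day 2 (0.239) was left out, with ethanol as its own term (0.133), with the floor at the 20th percentile (0.123) and with no filter on low values (0.078). In all of these fits the effect lay between 0.85 and 1.29.

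No other chaperone was called. PDIA4, a disulfide isomerase, read 495 untransfected, 601 and 474 untreated, 624 with ethanol, and 821 and 683 with PonA (0.47 ± 0.16; adjusted p = 0.183 by limma). DNAJB9, a DNAJ co-chaperone of HSPA5, was above the floor on 3 arrays, the PonA arrays at 39.5 and 46.0 and the untreated array of day 1 at 29.7 (0.72 ± 0.19; adjusted p = 0.0974 by limma). Both had their PonA arrays above all transfected arrays without PonA, as did CALR by a smaller margin. PDIA3, a further disulfide isomerase, read 795 untransfected, 1084 and 846 untreated, 736 with ethanol, and 1213 and 1003 with PonA, so its ethanol array was the lowest and the day 1 untreated array exceeded the day 2 PonA array.

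CALR and CANX, the lectin chaperones that hold glycoproteins, and PDIA6 differed less with PonA, although their windows hold the ERSE as that of HSPA5 does. CALR read 1127 untransfected, 1966 and 2120 untreated, 2282 with ethanol, and 2601 and 2441 with PonA. CANX read 1933 untransfected, 2619 and 1707 untreated, 2563 with ethanol, and 3018 and 2318 with PonA. PDIA6 read 851 untransfected, 1545 and 1567 untreated, 1350 with ethanol, and 1578 and 1465 with PonA. PonA over untreated cells was 1.32-fold and 1.15-fold for CALR, 1.15-fold and 1.36-fold for CANX, and 1.02-fold and 0.935-fold for PDIA6 at days 1 and 2, all below the 1.72-fold and 2.44-fold of HSPA5. DNAJC3, an ER co-chaperone, reached 28.4 at most and lay at or near the floor throughout. A second CALR probe set (391 untransfected, 829 to 1179 transfected) did not separate PonA from the rest, since the untreated day 2 array (1045) exceeded the PonA array of day 1 (953), and a second PDIA6 probe set lay under the floor on all 6 arrays.

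The sensors and degradation factors were mixed. HERPUD1, whose window holds both element types, read 302 untransfected, 443 and 452 untreated, 508 with ethanol, and 560 and 808 with PonA. Its order was untreated, ethanol, PonA, with the PonA array of day 2 the highest (0.50 ± 0.21 in the PonA fit; adjusted p = 0.256 by limma). XBP1, the factor spliced upon ER stress, read 868 untransfected, 880 and 1058 untreated, 863 with ethanol, and 997 and 1333 with PonA. A second XBP1 probe set read 334 untransfected, 415 and 322 untreated, 369 with ethanol, and 394 and 503 with PonA, so PonA at day 2 was the highest array in both. These probe sets report XBP1 mRNA level and not its splicing. ATF6 stayed between 174 and 244, and SEL1L, an adaptor of ER-associated degradation, read 33.9 untransfected against 60.2 to 84.4 in transfected cells.

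VLDLR, a lipoprotein receptor that the unfolded protein response can raise, read 631 untransfected, 576 and 474 untreated, 656 with ethanol, and 864 and 943 with PonA. Its PonA arrays were the highest of the 6, the ethanol array came next, and its PonA effect of 0.71 ± 0.20 was not called (adjusted p = 0.105 by limma).

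PonA arrays lay above all 3 transfected arrays without PonA in 4 of 8 chaperones (HSPA5, CALR, PDIA4 and DNAJB9) and in 2 of 14 amino acid response genes (PSPH and GARS1), beside 16.6% of 7934 probe sets. PSPH met this by 239.8 against 239.1. Over all members the count was 9 of 34 higher, with CEBPB the only one lower on both (15.4% of probe sets lower). The amino acid count rests on the ethanol array: without it 10 of 14 met the rule, beside 22.6% of probe sets, and without the PonA array of day 1 it was 6, beside 26.0%. The chaperone count was 8 of 8 without the PonA array of day 2, beside 31.7%.

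The PonA fit gave a median effect of 0.34 over chaperones, 0.24 over amino acid response genes and 0.01 over all probe sets. With ethanol as its own term the medians were 0.36 and -0.14, and 0 of 34 members were called of 185 probe sets called (2.33%). Of the amino acid response genes, SLC7A5 (0.77 ± 0.22; adjusted p = 0.115 by limma) and GARS1 (0.57 ± 0.19; adjusted p = 0.167) came nearest to a call without that term. ASNS had a larger effect, 0.88, with an SE of 0.42 (adjusted p = 0.319 by limma), since the fit counts its ethanol array among those without PonA. Without the ethanol array the same fit called 6 members, HSPA5, ATF4, CEBPG, ASNS, SLC7A5 and PSPH, of 725 probe sets called, 5.19% of those tested called higher, and its term is then ethanol with PonA against neither.

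By single arrays, DDIT3 and PCK2 were at least 2-fold lower with PonA than with ethanol at day 1 (2.40% of 8000 probe sets), and none of the 34 members was 2-fold higher (3.23%). The second DDIT3 probe set, at 191 against 351, was lower but less than 2-fold apart. PonA over untreated cells was at least 2-fold for ASNS and CEBPG at day 1 (3.58% of 8036 probe sets) and for HSPA5, CEBPG, ASNS and SLC7A5 at day 2 (4.67% of 7990). Markers of dividing cells moved with PonA as well: MKI67, TOP2A, CCNB1 and CDC20, 4 of 4 measured, fell, with a median of -2.43 (log2) and a summed signal between 385 and 2885 over the arrays. None of the 4 was at 0. The glial marker SLC1A3 rose by 2.88 ± 0.26 (log2, SE; adjusted p = 0.0041 by limma), with 193 and 225 on the PonA arrays against 22.8 to 38.8 on the other transfected arrays and 82.0 untransfected. It was not typical of its list: 5 of 7 glial markers tested had positive PonA effects and 2 negative, with a median of 0.14. FABP7 was lower on both PonA arrays (1505 and 1638) than on the other transfected arrays (1647 to 2185). The brighter probe set of the fibroblast marker COL1A1 read 121 and 47.1 with PonA against 31.7 to 41.7 without, and was not called (1.19 ± 0.30; adjusted p = 0.083 by limma). COL1A2, the other fibroblast marker tested, read 1716 and 1932 with PonA against 1653 to 1848 without, an effect of 0.04. The part of these markers in the results was not tested.

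A fit with separate PonA effects for each day called 0 of 7934 probe sets and 0 of 34 members for the difference of the days (330 probe sets at an unadjusted p under 0.05 by limma). DDIT3 had the highest such difference among members, 1.39 ± 0.63 (log2, SE). That fit counts the ethanol array among the day 1 arrays without PonA, so its high DDIT3 reading enters this value. Against untreated cells alone, PonA was 0.9-fold for DDIT3 at day 1 and 1.67-fold at day 2, a smaller change between days. For the day itself in transfected cells, the PonA and day fit called 0 of 7934 probe sets and 0 of 34 members, with 1048 probe sets and 4 members at an unadjusted p under 0.05 by limma. Those 4, SLC7A5 (-0.86 ± 0.22), CANX (-0.51 ± 0.17), PPP1R15A (-0.61 ± 0.22) and SLC7A11 (-0.47 ± 0.19), were all lower at day 2, beside 9.45% of probe sets. By single arrays PPP1R15A was 0.497-fold at day 2 in untreated cells (2.15% of probe sets at least 2-fold lower), and DDIT3 was 2.44-fold at day 2 with PonA (0.882% higher). The second DDIT3 probe set, at 287 with PonA at day 2 against 191 at day 1, was less than 2-fold apart.

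Untransfected and transfected cells differed in members of several roles. Untreated transfected cells at day 1 were at least 2-fold above untransfected cells in SEL1L (2.35-fold), DDIT3 (2.32-fold) and NUPR1 (4.20-fold), beside 3.08% of 8045 probe sets, and below them in PSPH (0.44-fold), beside 2.64%. The second probe sets of DDIT3 (1.63-fold) and NUPR1 (1.52-fold) were higher but less than 2-fold apart. The chaperone median was 0.37 and the amino acid response median -0.08 (log2), with 0.04 over all probe sets. All 5 transfected arrays exceeded the untransfected one in 11 of 34 members (CALR, PDIA6, ATF6, HERPUD1, SEL1L, ATF3, DDIT3, NUPR1, PHGDH, MTHFD2 and NARS1), beside 21.5% of 8090 probe sets, and all 5 were lower in CEBPB, SLC7A11 and PSPH, beside 21.1%. ATF3 lay under the floor on the untransfected array and on 2 of the transfected ones, so its place among the 11 depends on the floors. All of these counts rest on 1 untransfected array.

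**Figure D5:**
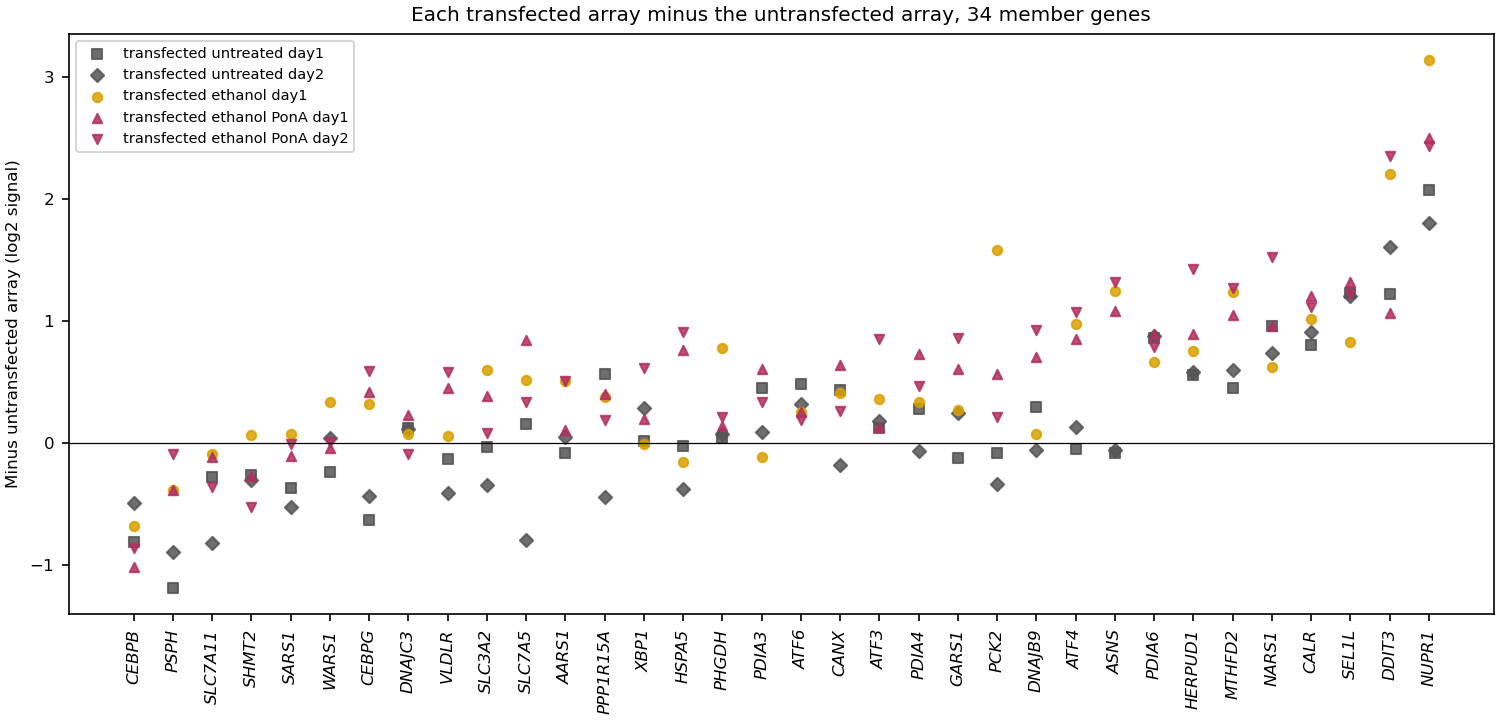
Log2 signal of each of the 5 transfected arrays minus the untransfected array (y axis) for the 34 members (x axis), 1 point per array. NUPR1 and SEL1L lie above 0 on all 5 arrays and CEBPB and PSPH below 0 on all 5, while HSPA5 lies above 0 on the PonA arrays.

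In the limma fit of transfection with PonA and day over all 6 arrays, 21 of 8090 probe sets were called (0.260%) and 0 of 34 members, with 1205 probe sets (14.9%) and 7 members at an unadjusted p under 0.05. NUPR1 came nearest at 2.50 ± 0.45 (log2, SE; adjusted p = 0.0989 by limma), but its second probe set gave 1.21 ± 0.55 (adjusted p = 0.374 by limma). The brighter NUPR1 probe set passed without the ethanol array (adjusted p = 0.00981 by limma), without the untreated array of day 1 (0.0196), with ethanol as its own term (0.0202) and with an intensity trend (0.0324), which also brought in CALR (0.92 ± 0.22; adjusted p = 0.0333). SEL1L was 1.07 ± 0.25 (adjusted p = 0.157 by limma) and CEBPB was -0.73 ± 0.21 (0.211). In the same fit the glial GFAP fell by 3.71 and the neuronal NEFL fell by 4.11 on the log2 scale, both called lower in transfected cells, and their part in the members' differences was not tested.

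Other genes of these pathways, grouped by role and listed with earlier results of these data known, gave the following counts. Of 24 other integrated stress response genes tested, 9 were higher on all 3 arrays with ethanol than on both transfected arrays without it (STC2, VEGFA, CTH, CBS, SLC1A4, SLC1A5, SLC7A1, EIF4EBP1 and BCAT1) and 3 were lower (EIF2B4, EIF2B5 and ATF5), beside the 12.2% and 13.4% above. Of 22 other ER folding and secretory genes 3 were higher (ERP29, SSR1 and OS9) and none lower, and of 10 other synthetases 3 were higher (TARS1, YARS1 and CARS1) and 1 lower (KARS1). These genes were named after their values were seen. BCAT1, an enzyme of branched-chain amino acid use, read 85.1 untransfected, 90.9 and 76.8 untreated, 198 with ethanol, and 355 and 257 with PonA, so it was high with ethanol and higher still with PonA (1.55 ± 0.34 in the PonA fit; adjusted p = 0.056 by limma). In the PonA fit 1 of the 24 was called, CTH, the last enzyme of the path from methionine to cysteine (0.99 ± 0.17; adjusted p = 0.0281 by limma). CTH read 49.6 and 51.6 with PonA and 27.9 with ethanol, and it lay under the floor on the untreated and untransfected arrays, so its fitted fold depends on the floor. A further probe set of VEGFA, an angiogenic growth factor that ATF4 can raise, was called as well (1.34 ± 0.26, adjusted p = 0.039 by limma). That probe set may read several transcripts, and the brightest VEGFA probe set was not called (0.85 ± 0.20, adjusted p = 0.0712 by limma). Single arrays were also at least 2-fold apart for BCAT1 (3.91-fold and 3.35-fold for PonA over untreated at days 1 and 2), CBS (at least 2.14-fold and at least 2.58-fold), VEGFA (2.22-fold at day 2), HSPA13 (2.19-fold for PonA at day 2 over day 1) and HARS1. At most 4 genes are named per comparison. Of the 24 genes, 2 were 2-fold higher for PonA over untreated at day 1 (3.58% of probe sets), 6 at day 2 (4.67%) and 1 for ethanol over untreated (1.04%). Of the 10 synthetases, 1 was higher for PonA over untreated at day 2, and 1 was lower in untreated transfected than untransfected cells (2.64%). Of the 22 ER genes, 1 was higher for PonA at day 2 over day 1 (0.882%). HARS1 read 59.7 in untransfected cells and lay under the floor in untreated transfected cells at day 1, at least 2.27-fold lower, and its transfection effect of -1.26 ± 0.23 was not called (adjusted p = 0.0977 by limma). None of the 22 ER genes or the 10 synthetases was called in the PonA fit.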

How the data were processed

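The deposited table holds MAS5 signal intensity on a linear scale for 6 arrays. Per the submitters' processing notes the authors used MAS5. Neither its version nor detection calls are given in the labels. No further scaling was applied. Symbols came from the platform annotation, updated through a RefSeq table of GRCh38.p14. The brightest probe set of a gene stands for it. Every member on the array was named. Other genes of the pathways were named where called, where at least 2-fold apart (at most 4 per comparison) or, after their values were seen, where groups of arrays did not overlap.

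Log2 values with the 40th percentile floor were fitted with limma 3.58.1 (R 4.3.3; lmFit, eBayes, Benjamini-Hochberg over all tested probe sets, threshold 0.05), testing each probe set that exceeded the floor on 2 or more arrays. A probe set past that threshold is called. Of the fits, only the one with PonA and day was tested on simulated data, which had independent noise on each array. In the PonA and day fit the 2 residual degrees of freedom are ethanol against untreated cells at day 1 and the contrast of PonA between days, not repeated cultures. The lone untransfected array is assumed to vary like the others. With 1 array a group, the number of arrays limits the precision. Comparisons of 1 array with 1 array have no test. A fold is a bound where 1 of its arrays lies at the floor. Alternatives were another floor, an offset of 16 in place of a floor, no filter, quantile normalization, an intensity trend, other model terms, other choices among probe sets, and leaving out each array. The members and all lists were chosen with earlier results of these data known.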

Additional observations from a re-analysis of the deposited data

How the results depend on the processing

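No paired analysis was possible because each group has 1 array, and a number shared by all groups pairs nothing. Ethanol fits without a PonA term and counts of arrays that do not overlap were added after seeing the data. Where a count is compared, a change of more than 1.5 times is given, and medians are given where they moved by more than the median residual SD of 0.206 (log2). For PonA, 402 probe sets were called, against 107 with the floor at the 20th percentile, 29 with no filter, 625 with an intensity trend, 185 with ethanol as its own term, 107 and 215 with a PonA term for day 1 and day 2, and 111 to 725 without 1 array. Of the members 1 was called, against 3 with the trend (HSPA5, SLC7A5 and VLDLR), 0 with each of the other settings just named, and 0 to 6 without 1 array. The amino acid response median minus the chaperone median was -0.094 for PonA, -0.50 with ethanol as its own term, 0.19 for the PonA term of day 2, and -0.33 to 0.093 without 1 array. For ethanol it was 0.61, against 0.20 without a PonA term and 0.093 without both that term and the ethanol array. Ethanol called 0 probe sets and 0 members, against 8 probe sets with an offset in place of the floor, 77 probe sets and 8 members with the trend, and 725 probe sets and 6 members without the PonA term and the ethanol array. In that last fit the term for HSPA5 was 1.04 (limma adjusted p = 0.0184), opposite in sign to its -0.01 with all arrays, because the term then stands for ethanol with PonA. Transfection called 21 probe sets, against 0 with the lower floor and 0 with no filter, 46 with the offset, 7 with quantile normalization, 115 with the trend, 70 with ethanol as its own term, and 24 to 99 without 1 array. Its called members were 0, against 2 with the trend, 1 with ethanol as its own term, and 0 to 1 without 1 array. Its median difference was -0.063, against -0.44 with ethanol as its own term and -0.44 to 0.069 without 1 array. For the day the fit called 0, against 2 with the trend and 0 to 16 without 1 array, and the median difference was -0.051, with -0.21 to 0.23 without 1 array. With the offset, members at least 2-fold apart were 2 for ethanol over untreated, 1 for PonA over ethanol, 1 for PonA over untreated at day 1 and 0 for untreated day 2 over day 1, the last also 0 with quantile normalization. Averaging probe sets left 0 for PonA day 2 over day 1, against 1. With every probe set on its own the median difference for PonA over untreated at day 1 was 0.31, against 0.03. Without 1 array, chaperones higher on all arrays with ethanol numbered 2 to 5, chaperones higher on both PonA arrays 4 to 8, and amino acid response genes higher on both PonA arrays 2 to 10. Beyond what the offset, the filters and the missing arrays do by construction, the cause was not tested.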
